A study of Mus musculus with 60 samples.

Results

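Gene expression in the brain stem was compared between 5 tumor-bearing mice killed at mid-dark and 5 killed at mid-light, over all genes of a neuroinflammation panel. The 10 samples were chosen by their labels alone, out of 56 samples with values (60 are listed). All were female Balb/C mice, 13 weeks old at collection, that had received 67NR cells in the mammary glands 25 days earlier. 67NR cells are mouse mammary carcinoma cells that do not metastasize, and as they are all of 1 line, every tumor had the same origin. Mid-dark was 19 h after lights on (ZT19; mice 3, 7, 11, 19 and 23) and mid-light was ZT7 (mice 1, 5, 9, 13 and 29). Each mouse gave 1 brain stem sample at 1 time of day, so the groups hold different mice and no mouse was followed over the day. The same mice also gave hippocampus and hypothalamus, and vehicle injected mice (medium without cells), 4 at mid-dark and 5 at mid-light, gave 9 further brain stem samples that shared the model and served for comparison. Mice were perfused with saline before dissection.

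Oligodendrocytes wrap axons in myelin, a stack of membrane that is rich in a few proteins and in galactolipids, and the brain stem, with its long fiber tracts, holds much of it. Transcription of myelin and chaperone genes in the brain is known to vary between sleep and waking. Mice are nocturnal, so mid-dark falls in their active phase and mid-light in their rest phase. Of the core clock list only Timeless is on the panel, so the clock itself was not measured here.

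The panel counts RNA molecules with color-coded probes, 1 probe pair per gene. Each value below is a log2 normalized value, and a difference is mid-dark minus mid-light on that log2 scale, so that a difference of 1 is a doubling. Because all samples were quantile normalized to 1 common set of values, a value gives a gene's rank within its sample, not an absolute amount. Of the 770 genes, 769 varied among the brain stem samples and could be tested. Sample medians lay between 8.07 and 8.09. Of the 7700 values of the 10 samples, 11 equaled the lowest value of the table.

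The tissue label was checked against marker genes. Slc17a6, the vesicular glutamate transporter of brain stem and hypothalamic neurons, lay between 12.46 and 13.04 in the brain stem of these mice and between 7.63 and 10.06 in their hippocampus. Tbr1, a cortical neuron gene, lay between 2.87 and 5.42 in brain stem and between 7.63 and 8.94 in hippocampus. Slc17a7, also chosen as a forebrain neuron marker, was not low in brain stem, at 9.60 to 10.49. It lay between 12.73 and 13.29 in hippocampus and between 4.85 and 8.94 in hypothalamus. The means over the neuron, oligodendrocyte, astrocyte and microglia markers were above the sample medians in all 10 mice. The 10 samples correlated with each other at 0.981 to 0.994 (Pearson's r across genes, which are not independent). Mouse 11 of the mid-dark group stood apart: its Slc1a3 value was 13.9 against 12.77 to 13.01 in the other mid-dark mice, its Dlx1 value was 5.87 against 3.32 to 3.91, and it had the lowest oligodendrocyte mean of the 10 mice. Ttr, the transthyretin gene of the choroid plexus, was low in mouse 23 of the mid-dark group (6.81) and in mice 9 and 13 of the mid-light group (6.78 and 6.96) and between 11.59 and 13.77 in the other 7 mice. With Ttr as a covariate all 6 calls given below remained. RNA purity also differed among mice. The absorbance ratio given with each RNA as a measure of protein carry-over was 1.66 ± 0.261 at mid-dark and 1.87 ± 0.202 at mid-light (SD, n = 5 each; exact permutation test, two-sided, p = 0.214, adjusted over 3 RNA measures 0.405; the smallest p that 252 assignments allow is 0.0079). The tumors of a mid-dark mouse together weighed 4.20 ± 0.719 g and those of a mid-light mouse 3.39 ± 0.86 g (SD, n = 5 each; exact permutation test, two-sided, p = 0.143).

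Of the 769 genes tested, 6 differed between mid-dark and mid-light at an adjusted p under 0.05 (limma, Benjamini-Hochberg), which is 0.78% of the panel. Calr, Cldn5 and Atp6v0e were higher at mid-dark (3 genes, 0.39%) and Opalin, Pllp and Mog were lower (3 genes, 0.39%). At an unadjusted p under 0.05 there were 78 genes (10.1%), 36 higher (4.68%) and 42 lower (5.46%) at mid-dark. In 18 genes (2.34%) the 5 mid-dark values did not overlap the 5 mid-light values, with 7 genes higher (0.91%) and 11 lower (1.43%) at mid-dark. The 6 called genes are among these 18. The median difference over all genes was -0.0008, which the quantile normalization holds near 0. With only the 2 groups in the fit, or with RNA purity as a covariate, Opalin, Pllp and Calr were called. With tumor mass as a covariate, also with only the 2 groups in the fit, Opalin and Pllp were called. Without mouse 19, or without mouse 13, 3 genes were called (Opalin, Pllp and Calr), and without mouse 11 there were 4 (these with Cldn5).

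**Figure D1:**
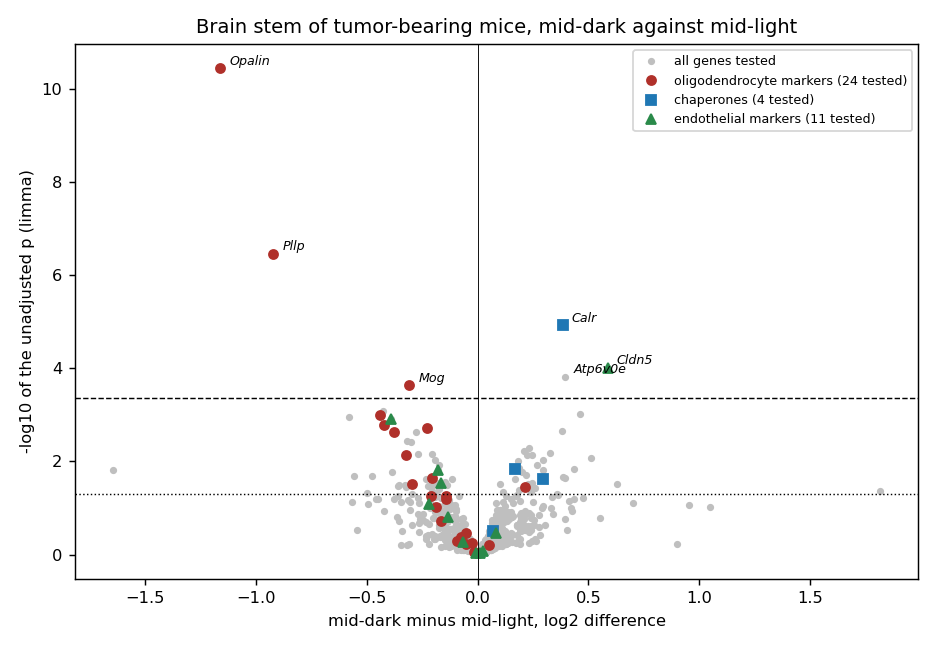
Each point is 1 of 769 panel genes in the brain stem of tumor-bearing mice. The horizontal axis is the mid-dark minus mid-light log2 difference and the vertical axis is the -log10 of the unadjusted limma p. The dashed line lies between the 6 called genes and the rest, and the dotted line is an unadjusted p of 0.05. Opalin and Pllp lie left of 0 and, by their p values, above all other genes. Most oligodendrocyte genes lie left of 0.

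Opalin and Pllp had the 2 smallest p values of the panel. Both encode membrane proteins of myelin-forming oligodendrocytes: opalin is a transmembrane glycoprotein of the central nervous system sheath, and plasmolipin, the product of Pllp, is a proteolipid of the myelin membrane. Their promoter windows, 250 bases before to 50 after the start of transcription, are shown because these genes had the smallest p values and the same direction, beside those of Calr and Atp6v0e, the called genes that hold an E-box. The sequences are from RefSeq on build GRCm38.p6, written 5′ to 3′ on the strand of the gene. Opalin is at chr19:41077064-41077363 (minus strand), Pllp at chr8:94696193-94696492 (minus strand), Calr at chr8:84846882-84847181 (minus strand) and Atp6v0e at chr17:26676146-26676445 (plus strand). Capitals mark any match, on either strand, to the searched motifs.
Opalin: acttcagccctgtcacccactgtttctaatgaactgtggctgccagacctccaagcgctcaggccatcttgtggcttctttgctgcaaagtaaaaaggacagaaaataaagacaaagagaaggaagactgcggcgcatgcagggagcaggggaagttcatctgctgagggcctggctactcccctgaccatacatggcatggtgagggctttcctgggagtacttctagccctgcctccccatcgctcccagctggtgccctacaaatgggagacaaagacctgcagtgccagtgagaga
Pllp: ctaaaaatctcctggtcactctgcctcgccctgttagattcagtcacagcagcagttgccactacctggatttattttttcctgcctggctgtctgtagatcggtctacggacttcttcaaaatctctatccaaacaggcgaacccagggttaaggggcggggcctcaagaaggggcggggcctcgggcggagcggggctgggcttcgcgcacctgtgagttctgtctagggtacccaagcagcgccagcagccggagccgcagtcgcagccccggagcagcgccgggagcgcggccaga
Calr: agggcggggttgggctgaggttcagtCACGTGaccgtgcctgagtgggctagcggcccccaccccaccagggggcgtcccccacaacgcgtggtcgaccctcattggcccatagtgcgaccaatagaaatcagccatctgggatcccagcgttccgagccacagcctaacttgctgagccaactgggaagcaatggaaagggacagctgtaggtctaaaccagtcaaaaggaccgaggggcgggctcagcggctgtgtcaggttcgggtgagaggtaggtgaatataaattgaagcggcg
Atp6v0e: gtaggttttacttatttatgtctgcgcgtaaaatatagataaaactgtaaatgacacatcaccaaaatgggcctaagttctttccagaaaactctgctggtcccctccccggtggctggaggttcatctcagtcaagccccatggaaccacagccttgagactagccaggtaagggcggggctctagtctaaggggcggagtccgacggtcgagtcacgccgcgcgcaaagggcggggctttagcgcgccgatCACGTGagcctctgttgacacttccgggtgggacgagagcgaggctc

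The searched motifs were the E-box CACGTG that the clock factors CLOCK and BMAL1 bind, the E-prime box CACGTT, the core TGACG of the cAMP response element and the core AGGTCA of the element that nuclear receptors of the clock bind. The windows of Opalin and Pllp hold none of the 4. The Calr window holds 1 E-box, 224 bases before the start, and the Atp6v0e window holds 1 E-box, 3 bases after it. Among the other called genes, Mog holds 1 TGACG, 20 bases after the start, and Cldn5 holds no match. An E-box is found in 7.24% of all 27025 promoter windows and in 10.3% of the 601 panel genes with a window, against 2 of the 6 called genes. CACGTT is found in 4.77% of all windows and in 4.66% of the panel genes with a window. TGACG is found in 21% and 23.8%, and AGGTCA in 16% and 12.1%. These matches describe the letters and are no evidence of binding.

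In Opalin every mid-dark mouse lay below every mid-light mouse. Its values were 8.97, 9.10, 8.98, 9.02 and 9.20 in mid-dark mice 3, 7, 11, 19 and 23, and 10.23, 10.27, 10.00, 10.25 and 10.31 in mid-light mice 1, 5, 9, 13 and 29. The gap between the highest mid-dark mouse (mouse 23) and the lowest mid-light mouse (mouse 9) was wider than the whole range of either group. The difference was -1.16 (SE 0.08, adjusted p = 2.71e-08), a level 2.24-fold higher at mid-light.

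Pllp followed the same order. Its values were 8.67, 8.83, 8.54, 8.80 and 8.74 in mid-dark mice 3, 7, 11, 19 and 23, and 9.38, 9.90, 9.48, 9.79 and 9.65 in mid-light mice 1, 5, 9, 13 and 29. The groups did not overlap, and the mid-light mice spread more widely than the mid-dark mice. The difference was -0.92 (SE 0.12, adjusted p = 1.32e-04), a level 1.89-fold higher at mid-light. Opalin and Pllp were called in all 10 repeats with 1 mouse left out, and in all other alternatives run.

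**Figure D2:**
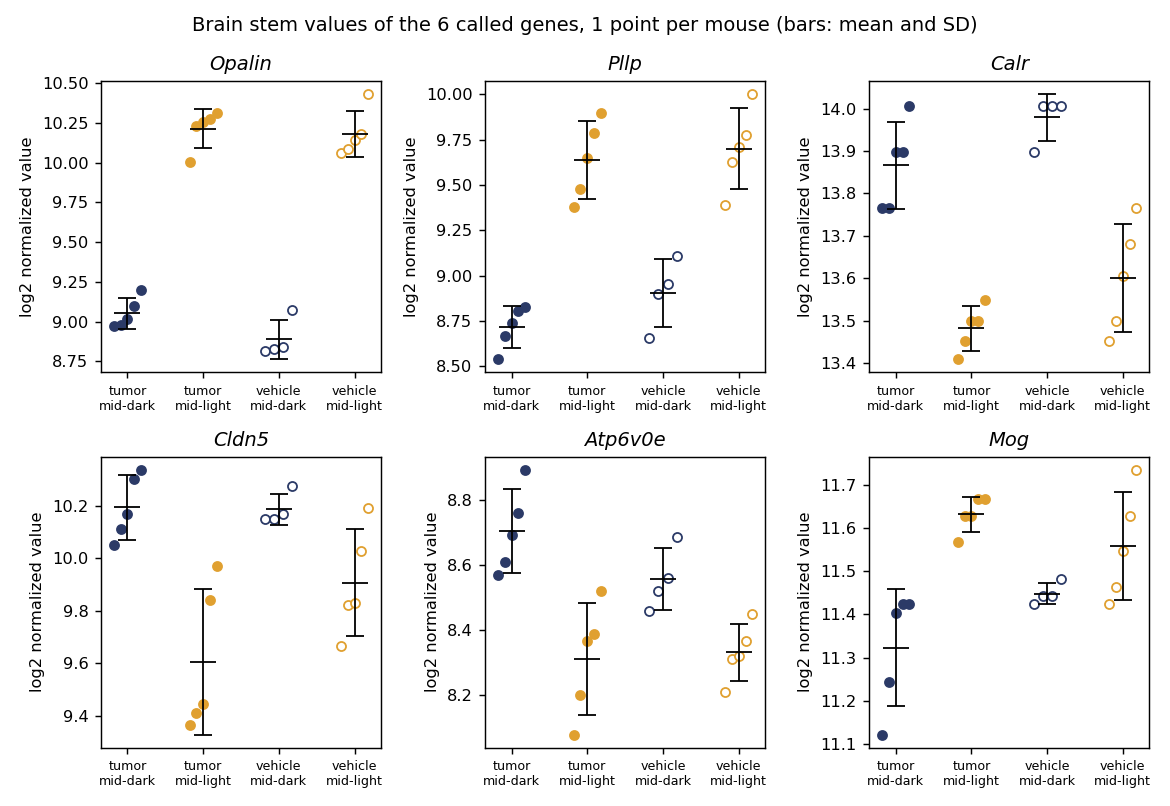
Brain stem log2 normalized values of the 6 called genes, 1 point per mouse, in tumor-bearing mice (filled) and vehicle injected mice (open) at mid-dark (blue) and mid-light (yellow). Black bars are the mean and SD. In tumor-bearing mice the groups do not overlap for any of the 6 genes; the Opalin values are 8.97 to 9.20 at mid-dark and 10.00 to 10.31 at mid-light. Vertical axes differ between panels and do not start at 0.

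Most other oligodendrocyte genes had smaller differences in the same direction. Of 24 tested genes of the oligodendrocyte list, 22 had a difference below 0, against 386 of all 769. At an unadjusted p under 0.05, 10 were lower (9 without mouse 11) and 1 was higher, against 5.46% and 4.68% of the panel. With samples of a purity ratio under 1.6 left out (mid-dark mice 3 and 19 and mid-light mouse 29), 7 were lower and none was higher. With the purity ratio as a covariate 9 were lower. With tumor mass as a covariate, fitted on the tumor-bearing mice alone, 8 were lower. The list held 3 called genes, all lower, against 0.39% of the panel called lower. The median difference was -0.18, against -0.0008 over all genes. Fewer oligodendrocytes in a sample and less RNA per oligodendrocyte cannot be told apart in whole tissue.

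Mog, which encodes a glycoprotein of the outer myelin surface, had values of 11.42, 11.42, 11.12, 11.24 and 11.40 in mid-dark mice 3, 7, 11, 19 and 23, and 11.57, 11.63, 11.63, 11.67 and 11.67 in mid-light mice 1, 5, 9, 13 and 29. The mid-light mice lay close together and the mid-dark spread came from mice 11 and 19. The difference was -0.31 (SE 0.07, adjusted p = 0.0295). Without any 1 of mice 11, 19, 5, 9, 13 or 29 Mog was not called (adjusted p up to 0.108).

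Mag, the adhesion protein on the inner face of myelin, ranged from 10.35 to 10.80 at mid-dark and from 10.94 to 11.28 at mid-light, a difference of -0.44 (adjusted p = 0.0864). Fa2h, which hydroxylates the fatty acids of myelin lipids, ranged from 9.42 to 9.84 and from 9.95 to 10.25, a difference of -0.42 (adjusted p = 0.106). The groups did not overlap in either gene. Cnp, an enzyme of the uncompacted sheath, differed by -0.23 (adjusted p = 0.111). Enpp6, a choline phosphodiesterase high in newly formed oligodendrocytes, differed by -0.38 (adjusted p = 0.111). Tmem88b (-0.33), Ugt8a, which makes the galactolipid galactosylceramide (-0.21), and S1pr5, the sphingosine phosphate receptor of oligodendrocytes (-0.30), were also at an unadjusted p under 0.05. Enpp6, Tmem88b, Ugt8a and S1pr5 were singled out after their values were seen. Erbb3, a neuregulin receptor of the lineage, was the 1 member of the list that was higher at mid-dark at that threshold (0.21, adjusted p = 0.401).

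Outside the list, Pmp22 and Fabp5 were among the 10 genes below 0 with the smallest p. Pmp22, a peripheral myelin protein gene, ranged from 9.77 to 10.00 at mid-dark and from 10.07 to 10.52 at mid-light, without overlap, a difference of -0.43 (adjusted p = 0.0864). Fabp5, a fatty acid binding protein, differed by -0.28 (adjusted p = 0.111).

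The mean over the 24 oligodendrocyte genes was 10.29, 10.44, 10.14, 10.35 and 10.34 in mid-dark mice 3, 7, 11, 19 and 23, and 10.54, 10.58, 10.54, 10.55 and 10.52 in mid-light mice 1, 5, 9, 13 and 29. The mid-light mice were nearly equal and all lay above every mid-dark mouse. Over the 22 genes other than Opalin and Pllp, the mean was 10.44 ± 0.114 at mid-dark and 10.60 ± 0.0228 at mid-light (SD, n = 5 each), and mid-dark mouse 7 (10.58) lay within the mid-light range of 10.57 to 10.63. Opalin minus that mean lay between -1.47 and -1.26 at mid-dark and between -0.61 and -0.26 at mid-light. Pllp minus that mean lay between -1.75 and -1.67 and between -1.23 and -0.73. Neither range overlapped between phases, so Opalin and Pllp were lower also relative to the other oligodendrocyte genes of the same sample. The mean without both genes was also used as a covariate, although it is itself an outcome. In that limma fit Opalin differed by -1.10 (adjusted p = 3.16e-06) and Pllp by -0.71 (adjusted p = 0.00657). There 3 members of the list instead of 10 were lower at an unadjusted p under 0.05. The brain stem of vehicle injected mice gave -1.29 for Opalin and -0.80 for Pllp, while the median over the list was -0.07.

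**Figure D3:**
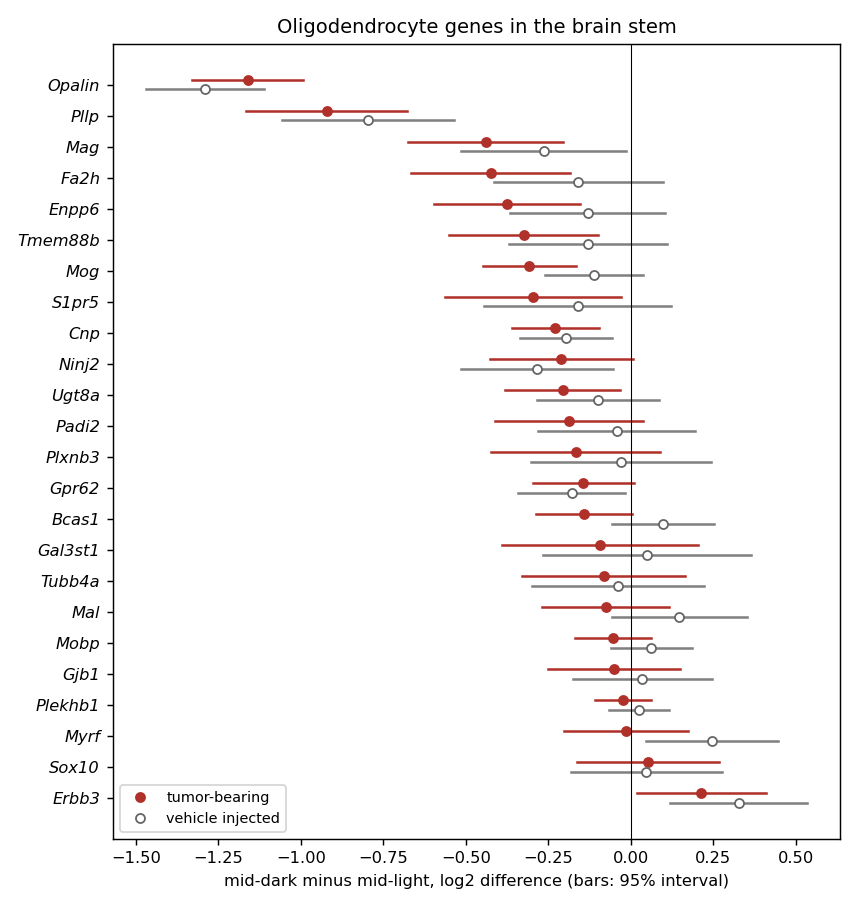
Mid-dark minus mid-light log2 difference of the 24 tested oligodendrocyte genes in the brain stem of tumor-bearing mice (filled) and vehicle injected mice (open), with 95% intervals. In tumor-bearing mice 22 of the 24 points lie below 0; Opalin (-1.16) and Pllp (-0.92) lie furthest out in both groups.

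Of the chaperone genes, Calr was higher at mid-dark. Of 4 tested genes of the list, 1 was called, against 0.39% of the panel called higher. At an unadjusted p under 0.05, 3 of the 4 were higher, against 4.68% of the panel, and none was lower. The median of the list was 0.23. With samples of a purity ratio under 1.6 left out 1 of the 4 was higher at that threshold, and with the purity ratio or tumor mass as a covariate 2 were. Calr encodes calreticulin, a chaperone of the endoplasmic reticulum. Its values were 13.90, 13.77, 13.77, 14.01 and 13.90 in mid-dark mice 3, 7, 11, 19 and 23, and 13.55, 13.50, 13.50, 13.41 and 13.45 in mid-light mice 1, 5, 9, 13 and 29. The difference was 0.38 (SE 0.06, adjusted p = 0.00301), a level 1.31-fold higher at mid-dark, and it was called with any 1 mouse left out. At this height of the scale few genes remain, and the quantile normalization leaves only a few steps that a value can take. With samples of a purity ratio under 1.6 left out the difference was 0.32 (adjusted p = 0.0969). With only the 2 groups in the limma fit the adjusted p was 0.0292. With tumor mass added to that fit the difference was 0.41 (adjusted p = 0.0666).

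Bag3, a co-chaperone of heat shock proteins, lay between 8.73 and 8.99 at mid-dark and between 8.54 and 8.74 at mid-light, so that the groups touched at mice 11 and 9. Its difference was 0.17 (adjusted p = 0.311). Hspb1, a small heat shock protein, lay between 8.81 and 9.18 and between 8.38 and 8.94, a difference of 0.30 (adjusted p = 0.372). In vehicle injected mice all 3 were called, with 0.38 for Calr, 0.30 for Bag3 and 0.74 for Hspb1.

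Of the endothelial genes, Cldn5 was higher at mid-dark. It was the 1 gene called of 11 tested, against 0.39% of the panel called higher. At an unadjusted p under 0.05, 3 of the 11 were lower, against 5.46% of the panel. The median of the list was -0.07. Cldn5 encodes claudin-5, the tight junction protein of the blood-brain barrier. Its values were 10.17, 10.30, 10.11, 10.34 and 10.05 in mid-dark mice 3, 7, 11, 19 and 23, and 9.44, 9.84, 9.41, 9.37 and 9.97 in mid-light mice 1, 5, 9, 13 and 29. The mid-dark mice lay close together, and the mid-light mice fell into a lower trio (1, 9 and 13) and a higher pair (5 and 29). The difference was 0.59 (SE 0.12, adjusted p = 0.0186). Without mouse 19, 9 or 13 Cldn5 was not called (adjusted p up to 0.0801).

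Nostrin, which regulates the trafficking of endothelial nitric oxide synthase, had a difference of the other sign that was not called. It lay between 6.52 and 6.82 at mid-dark and between 6.94 and 7.27 at mid-light, without overlap, a difference of -0.39 (adjusted p = 0.0864). Icam2, an adhesion molecule, differed by -0.18 (adjusted p = 0.311), and Esam, an adhesion molecule of endothelial junctions that was singled out after its value was seen, by -0.17 (adjusted p = 0.401). The mean over the 11 endothelial genes was 8.03 to 8.17 at mid-dark and 8.05 to 8.26 at mid-light, and these ranges overlap.

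Atp6v0e encodes a membrane subunit of the vacuolar proton pump, which acidifies lysosomes and synaptic vesicles. Its values were 8.61, 8.57, 8.76, 8.69 and 8.89 in mid-dark mice 3, 7, 11, 19 and 23, and 8.39, 8.20, 8.37, 8.08 and 8.52 in mid-light mice 1, 5, 9, 13 and 29. The lowest mid-dark value (mouse 7) was just above the highest mid-light value (mouse 29). The difference was 0.39 (SE 0.08, adjusted p = 0.0232). It was not called without mouse 11, 19, 23, 5 or 13 (adjusted p up to 0.0822). Of 20 genes on the autophagy list none was higher at an unadjusted p under 0.05, and Optn, an autophagy receptor, differed by -0.20 (adjusted p = 0.216) without overlap.

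The glucocorticoid responsive list, genes that stress steroids induce in many tissues and whose hormone peaks before the active phase, split. Of 7 tested, none was called. At an unadjusted p under 0.05, 1 was higher, against 4.68% of the panel, and 1 was lower, against 5.46% of the panel. Cdkn1a, the cell cycle inhibitor p21, lay between 8.76 and 9.02 at mid-dark and between 8.21 and 8.85 at mid-light, a difference of 0.38 (adjusted p = 0.111). Nfkbia, the inhibitor of NF-kB, lay between 7.19 and 7.74 at mid-dark and between 7.80 and 8.57 at mid-light, without overlap, a difference of -0.58 (adjusted p = 0.0864). In vehicle injected mice Cdkn1a differed by 0.65 (adjusted p = 0.00339) and Nfkbia by -0.004 (adjusted p = 0.996). Of 12 genes of the NF-kB list, Nfkbia was the 1 at that threshold.

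Of 11 immediate early and activity genes, 2 were higher and 1 was lower at an unadjusted p under 0.05, and none was called. The panel's own shares at that threshold were 4.68% higher and 5.46% lower. Jun, a subunit of the transcription factor AP-1, differed by 0.29 (adjusted p = 0.247), and Bdnf, the neuronal growth factor that activity induces, by 0.30 (adjusted p = 0.311). Gadd45g, a stress-induced gene, differed by -0.19 (adjusted p = 0.49). The mid-dark mice held Jun between 9.44 and 9.57, and the mid-light mice spread from 8.94 to 9.46.

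Bcl2l11, the death gene Bim, lay between 5.61 and 6.05 at mid-dark and between 5.27 and 5.59 at mid-light, a difference of 0.46 (adjusted p = 0.0864). Fadd, an adaptor of death receptors, differed by -0.32 (adjusted p = 0.16). Il1b, the cytokine interleukin-1 beta, lay low on the scale, between 4.77 and 4.99 at mid-dark and between 4.01 and 4.72 at mid-light, a difference of 0.43 (adjusted p = 0.311). The Il1b values lay within the span of Uty (4.33 to 5.05) and Kdm5d (3.71 to 4.75) in the same 10 samples. Female tissue lacks both of these genes, so Il1b values of this height can be background. Fadd and Il1b were singled out after their values were seen.

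No marker of microglia, neurons, astrocytes or forebrain neurons was called. Of 17 microglia markers none was at an unadjusted p under 0.05, and their mean was 8.37 to 8.73 at mid-dark and 8.42 to 8.64 at mid-light. Of 17 neuron markers none was at that threshold either, with means of 11.45 to 11.60 and 11.48 to 11.67. Of 11 astrocyte markers Sox9, a transcription factor of astrocytes, differed by 0.23 (adjusted p = 0.207), and the means were 10.44 to 10.51 and 10.35 to 10.52. Of 7 genes listed as forebrain neuron markers none was at that threshold, but 5 were above 0, with a median of 0.23. This median was opposite in sign to that of the oligodendrocyte genes. The highest difference of the list was 0.96 (Eomes). Their mean was 6.22 to 7.40 at mid-dark and 6.23 to 6.65 at mid-light, the highest being mouse 11. The 7 genes did not move together in that mouse. It was the highest of the 10 mice in Eomes (7.65), Camk4 (11.26), Slc17a7 (10.49) and Dlx1 (5.87). It was not the highest in Tbr1 (4.15), Dlx2 (4.285) or Nrgn (8.06), so the list mean is no clean measure of forebrain neurons. The part of forebrain neuron markers and of tissue makeup in the oligodendrocyte differences was not tested.

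Lymphocyte and natural killer genes lay at the bottom of the scale. Of 17 tested, 2 were higher and 2 were lower at an unadjusted p under 0.05, against 4.68% and 5.46% of the panel. None was called, and 11 of their values equaled the lowest value of the table. Trat1, a T cell receptor adaptor, was at the lowest value in mid-dark mice 3 and 11 and at 1.87 to 3.41 in the other 3, against 2.19 to 3.76 at mid-light. Prf1, perforin, was at the lowest value in all 5 mid-light mice and in mid-dark mice 7 and 19. Nkg7, a granule protein, differed by 0.38 (adjusted p = 0.367) and Cd8b1, a coreceptor chain, by -0.35 (adjusted p = 0.401). No Nkg7 or Cd8b1 value exceeded 4.72, while Uty, which female tissue lacks, read 4.33 to 5.05 in the same samples. Values of this height can be background. Prf1 was singled out after its value was seen. Values at the lowest value have no order among themselves.

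Among 38 histone modifying enzymes none was called, 3 were higher and 2 were lower at an unadjusted p under 0.05, near the panel's own shares of 4.68% and 5.46%, so the count is no result about these enzymes. By the rule for named genes, Suv39h1, which methylates histone H3 in heterochromatin, differed by 0.18 without overlap (adjusted p = 0.247), and the acetyltransferase Crebbp by 0.17 (adjusted p = 0.372). The demethylase Kdm4d differed by -0.17 (adjusted p = 0.439) and the methyltransferase Setdb1 by -0.20 (adjusted p = 0.469). The methyltransferase Dot1l, singled out after its value was seen, differed by 0.24 (adjusted p = 0.469). Of 45 DNA repair and replication genes, 2 were higher and 1 was lower at an unadjusted p under 0.05, below the panel's shares. Rad51c (0.23) was among the higher and Mcm6 (-0.32) was the lower. Gclc, an enzyme of glutathione synthesis on the Nrf2 target list, differed by -0.11 without overlap (adjusted p = 0.372). Pik3cd, a kinase of the IGF and PI3K list, differed by 0.19 (adjusted p = 0.46).

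Further genes among the 10 with the smallest p in each direction were Nwd1 (0.21), Amigo2 (0.32), Cdk20 (0.25) and Map3k1 (0.22), each with an adjusted p of 0.216. Col6a3, a collagen gene singled out after its value was seen, differed by -0.30 (adjusted p = 0.163). The interferon induced, hypoxia target, neutrophil and ribosomal protein lists had no gene at an unadjusted p under 0.05, and neither had the 10 genes that responded to the tumor in an earlier comparison of these samples. Lcn2, the lipocalin of that group, lay between 7.45 and 8.13 at mid-dark and between 6.45 and 8.94 at mid-light, and between 3.41 and 5.12 in all 9 vehicle samples. Its difference between phases in tumor-bearing mice was 0.27 (95% interval -0.58 to 1.11).

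**Figure D4:**
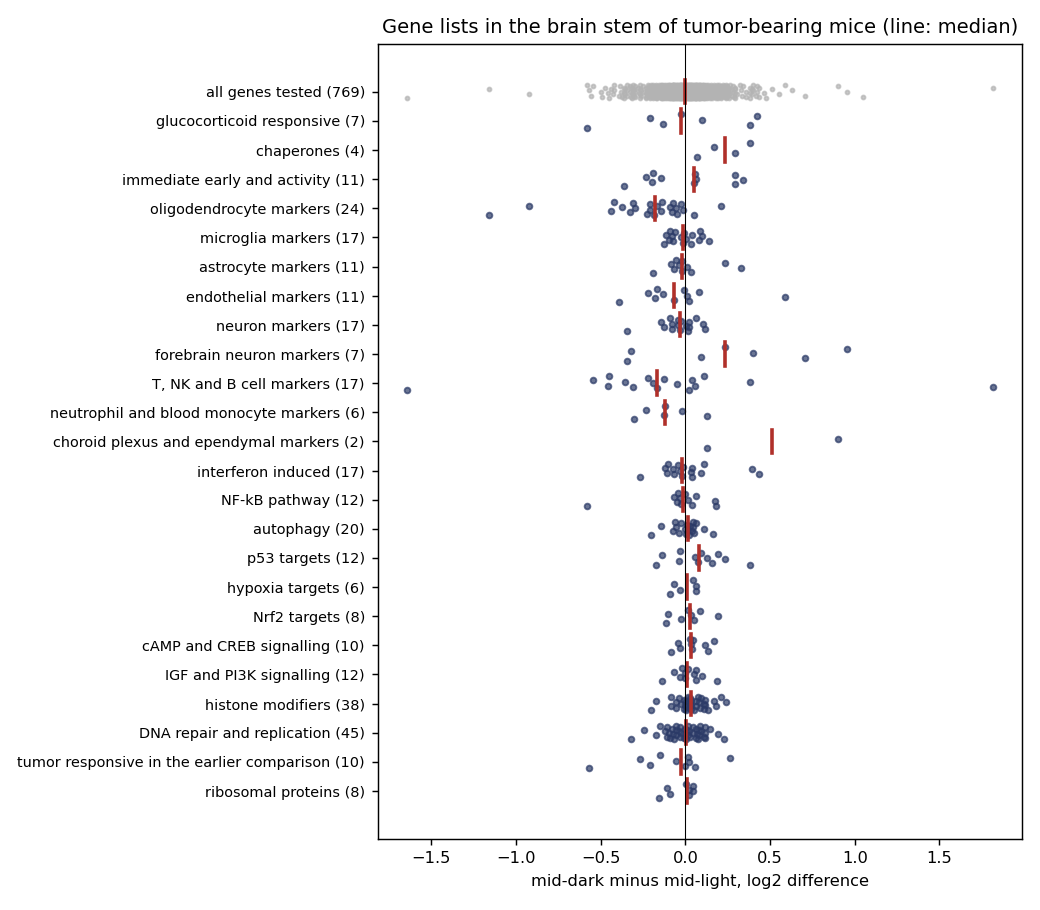
Mid-dark minus mid-light log2 differences of the genes of each list in the brain stem of tumor-bearing mice. Each point is 1 gene, the number in parentheses is the number tested and the red line is the median. Over all 769 genes the median is -0.0008, over the 24 oligodendrocyte genes it is -0.18 and over the 4 chaperones 0.23.

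The comparison with vehicle injected mice asks whether the phase difference was particular to tumor-bearing mice. In the brain stem of vehicle injected mice 10 genes were called (1.3%) and 77 had an unadjusted p under 0.05 (10%). Opalin (-1.29, 95% interval -1.47 to -1.11), Pllp (-0.80, -1.06 to -0.54) and Calr (0.38, 0.24 to 0.52) were called in vehicle injected mice too. Cldn5 (0.28, adjusted p = 0.397), Atp6v0e (0.22, adjusted p = 0.275) and Mog (-0.11, adjusted p = 0.674) were not. The test of the difference itself, tumor minus vehicle, called no gene (limma, Benjamini-Hochberg, smallest adjusted p 0.634), with 28 genes at an unadjusted p under 0.05 (3.64%). The tumor minus vehicle difference was 0.13 for Opalin (95% interval -0.12 to 0.37), -0.13 for Pllp (-0.48 to 0.23) and 0.0060 for Calr (-0.19 to 0.20). It was 0.31 for Cldn5 (-0.05 to 0.67), 0.17 for Atp6v0e (-0.08 to 0.42) and -0.20 for Mog (-0.40 to 0.0075). These intervals leave room for a difference of up to about the size of the Cldn5, Atp6v0e and Mog values themselves.

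The genes with the smallest p in that test were Setdb1, Trat1 and Nostrin. Setdb1 differed by -0.20 between phases in tumor-bearing mice and by 0.29 in vehicle injected mice (unadjusted p of the difference 0.00187). Nostrin differed by -0.39 and 0.11 (unadjusted p 0.00369). The value for Trat1 (unadjusted p 0.0034) rests on mid-dark mice 3 and 11 at the lowest value of the table, so no size is given. Each had an adjusted p of 0.634. Nfkbia, Bcl2l11 and Il1b had unadjusted p values of 0.0166, 0.0075 and 0.0041 in the same test, with adjusted p values of 0.936, 0.834 and 0.634. Il1b lay at the height of the genes that female tissue lacks, so its values can be background.

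The other regions of the same tumor-bearing mice gave Opalin and Pllp again. In hippocampus 8 genes were called (1.04%) and in hypothalamus 8 genes (1.04%). Opalin differed by -1.10 in hippocampus and -1.07 in hypothalamus, Pllp by -0.84 and -0.69, and Cldn5 by 0.49 and 0.59, and all of these were called. Calr differed by 0.50 in hippocampus (adjusted p = 0.0115) and by 0.13 in hypothalamus (adjusted p = 0.37). Mog differed by -0.68 (adjusted p = 0.0908) and -0.37 (adjusted p = 0.376), and Atp6v0e by -0.0015 (adjusted p = 0.996) and 0.11 (adjusted p = 0.837). Fa2h and Mag were called in hippocampus (-0.60 and -0.65, adjusted p = 0.043 for each).

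The region difference was tested within the mouse, as the brain stem value minus the value of the other region of that mouse. It called no gene against hippocampus (smallest adjusted p 0.103; 37 genes, 4.81%, at an unadjusted p under 0.05) and none against hypothalamus (smallest adjusted p 0.68; 32 genes, 4.16%). The brain stem phase difference exceeded that of hippocampus by 0.40 for Atp6v0e (95% interval 0.18 to 0.61, adjusted p = 0.509) and that of hypothalamus by 0.29 (0.06 to 0.51, adjusted p = 0.988). For Calr it exceeded that of hypothalamus by 0.25 (0.08 to 0.42, adjusted p = 0.911). For Opalin the brain stem differed from hippocampus by -0.06 (-0.49 to 0.37) and from hypothalamus by -0.09 (-0.32 to 0.13), and for Pllp by -0.08 (-0.35 to 0.19) and -0.23 (-0.49 to 0.03). The gene with the smallest p against hippocampus was Cytip, an adaptor of activated lymphocytes (-0.84, adjusted p = 0.103). Cytip lies at the low end of the scale, with brain stem values of 3.30 to 4.29. These are below the 4.33 to 5.05 of Uty, which female tissue lacks, so they can be background.

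**Figure D5:**
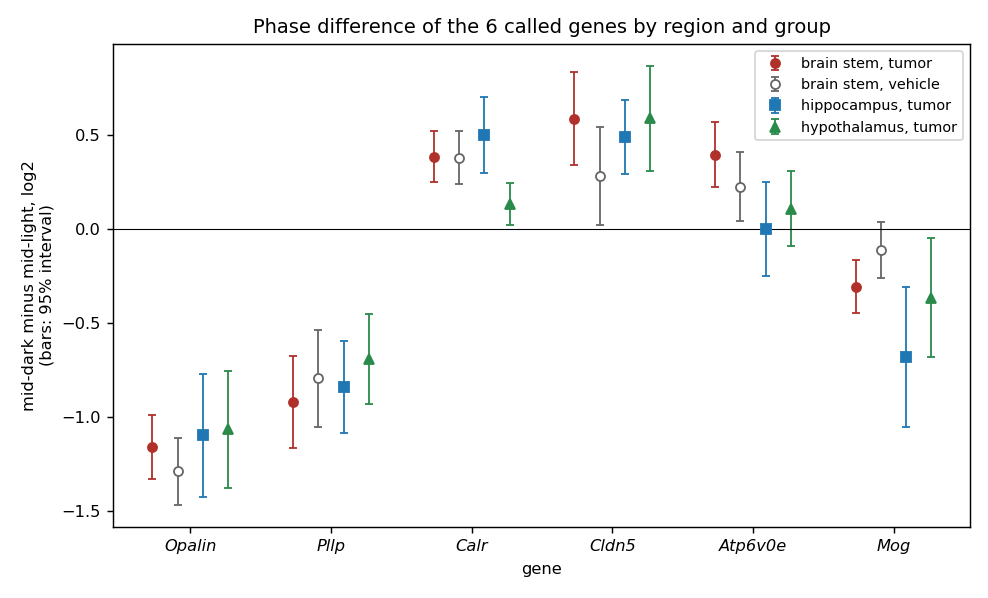
Mid-dark minus mid-light log2 difference of the 6 called genes with 95% intervals, in brain stem of tumor-bearing mice (red circles), brain stem of vehicle injected mice (open circles), and hippocampus (blue squares) and hypothalamus (green triangles) of tumor-bearing mice. Opalin lies between -1.29 and -1.07 in all 4, and Atp6v0e lies near 0 in hippocampus (-0.0015).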

How the data were processed

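Brain stem, hippocampus and hypothalamus RNA was measured on the nanoString nCounter platform with its mouse neuroinflammation codeset. The authors subtracted the negative control background, applied positive control and codeset content normalization in nSolver, quantile normalized the counts in Partek, and deposited the result as log2 values of 770 genes for 56 of 60 listed samples. The brain stem of 1 vehicle injected mouse and the hypothalamus of 3 were not analysed here. No counts were analysed; depth is therefore unknown, and precision rests on how many mice there were. Labels gave region, tumor status, phase and mouse number, and mice are the replicates.

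A limma model (limma 3.58.1, R 4.3.3) with 4 group means over the 19 brain stem samples gave the mid-dark minus mid-light difference in tumor-bearing mice, that in vehicle injected mice and their difference, with Benjamini-Hochberg adjustment over 769 genes and 95% intervals. Hippocampus and hypothalamus each had such a model of their own, and regions were compared by limma on the within-mouse difference; the pairing comes from the mouse. Same-mouse deviations correlated at -0.18 to 0.47 between brain stem and hippocampus and at -0.15 to 0.19 between brain stem and hypothalamus. In simulated data with 200 of 770 genes changed and genes varying independently, 96% of log2 changes of 1 and 53% of changes of 0.3 were called. The adjustment is stricter when fewer genes change, and 6 were called in the data. These shares therefore do not give the power of this comparison. Python 3.11.15 with pandas and matplotlib 3.10.9 searched the promoters and drew the plots; all 6 called genes and 601 of 770 panel genes matched a RefSeq promoter by symbol.

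Genes named were all called genes, the 10 with the smallest p in each direction and up to 3 per list. The 3 with the smallest p in the interaction and in each region test were named too. The rule also held Lcn2 and Ly6a as genes of the tumor effect, and Uty and Kdm5d as genes that female tissue lacks. Of these, the text gives values for those at an unadjusted p under 0.05 or of the named tests, and for Lcn2, Uty and Kdm5d. Others are said to be singled out. Some items are not reported here. The genes, lists and tests were chosen with earlier results of these data known. Alternatives were ordinary p values, only the 2 groups compared, the methods' t-test, a trended and robust prior, genes with a mean of 5 or more, subtraction of each sample's median, a further quantile normalization of the brain stem samples, RNA purity (absorbance ratio) or tumor mass as a covariate, samples with a purity ratio under 1.6 left out, a limit of 2 SD on the difference, no block, and leaving out each mouse. The fit with tumor mass held only the 2 groups of tumor-bearing mice. The oligodendrocyte mean and Ttr as covariates were added after the data were seen.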

Additional observations from a re-analysis of the deposited data

Results flagged for a closer look

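Of 114 groups of 5 values tested (54 of the genes of the text and 3 RNA measures, each at mid-dark and mid-light), 10 held 1 mouse far from the other 4. The genes were chosen partly by their values in these samples, and genes of 1 mouse are not independent. The usual rate of about 1 in 20 therefore does not apply, and the count is a description only. At mid-dark, mouse 11 was far above the others in Slc1a3 (13.8971), Dlx1 (5.87409) and Dot1l (7.19979), mouse 23 was far below in Ttr (6.80549), and mouse 19 was below in Jun (9.444, against 9.53 to 9.57). At mid-light, mouse 9 was below the others in Opalin (10.0012, against 10.23 to 10.31), mouse 1 was above in Cnp (14.2335, against 14.01 in each of the others), mouse 13 was above in Rad51c (7.18596) and Gadd45g (8.39807), and mouse 29 was below in the RNA purity ratio (1.51, against 1.94 to 1.97). The other 4 Cnp values share 1 step of the quantile normalized scale, so any different value there counts as far. Without mouse 9 the Opalin difference was -1.21, and without mouse 11 it was -1.14.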

How the results depend on the processing

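Of 6 genes called at an adjusted p under 0.05, 3 were called with only the 2 groups compared, 3 with the methods' t-test and 3 with the RNA purity ratio as a covariate; in each of these Opalin, Pllp and Calr kept the call. Tumor mass as a covariate was fitted on the tumor-bearing mice alone. Without the covariate that fit called 3 genes and had 68 at an unadjusted p under 0.05. With tumor mass added it called 2 (Opalin and Pllp) and had 49 at that threshold. With the oligodendrocyte marker mean as a covariate, added after the data were seen, 3 were called (Opalin, Pllp and Erbb3) and 3 oligodendrocyte genes instead of 10 were lower at an unadjusted p under 0.05. A trended and robust prior called 12 (the 6, with Cnp, Fa2h, Fabp5, Mag, Nfkbia and Pmp22). A log2 difference beyond 2 SD alone took 32 genes, and together with an ordinary p under 0.05 it took 14. With samples of a purity ratio under 1.6 left out 6 were called, without Calr and Mog and with Irf3 and Lrg1. With 1 tumor mouse left out, 3 to 8 genes were called, with 3 both without mouse 19 and without mouse 13; 59 to 99 genes had an unadjusted p under 0.05, and 8 to 11 oligodendrocyte genes were lower. The interaction and both region differences called 0 genes in every alternative run; without the replicate block the region difference called 0 genes against hippocampus (24 at an unadjusted p under 0.05 instead of 37) and 0 against hypothalamus (25 instead of 32), so the block changed no call. The causes of these changes were not tested. Over 54 named genes and their alternatives 3 differences changed sign, none of them called: Lcn2 to -0.16 with tumor mass as a covariate, Ttr to -0.035 without mouse 9 (2.05 without mouse 23), and Slc1a3 to -0.094 with the oligodendrocyte marker mean as a covariate. The number of mice limits the precision: the median SE of a difference over genes was 0.102.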
